A study of Mus musculus with 8 samples.

Results

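The 10 genes described here encode amino acid transporters of pancreatic alpha cells, the islet cells that secrete glucagon. They were chosen by gene symbol as carriers linked to glutamine- and arginine-driven alpha cell growth and secretion, and each of the 10 was matched to 1 probe set among the 19494 named genes of the array. The cells were alphaTC1.9, a mouse line established from a glucagon-secreting tumour, and the readout was 8 Clariom S arrays, each summarising short probes into 1 value per gene locus. Control cells gave 4 arrays, and another 4 came from IDE-KD cells, whose transcript for insulin-degrading enzyme, a protease of small peptides, was targeted by a small interfering RNA. Both groups grew in DMEM with 16 mM glucose, 0.1 mM non-essential amino acids and 10% serum, without further treatment. The sources used here do not give the kind of control or the time from knockdown to harvest. All arrays come from 1 cultured line. Titles number the arrays as biological replicates, and the protocol speaks of independent RNA, but they do not say whether they were separate cultures or transfections, so p-values measure the spread between these samples.

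As background, alpha cells take up glutamine and other neutral amino acids through sodium-coupled carriers of the SLC38 family, and lysine and arginine through the cationic carriers of the SLC7 family. When the glucagon receptor is blocked in mice, circulating amino acids rise and alpha cells multiply through mTORC1, a kinase complex that senses amino acids, and Slc38a5 is known to be induced in these cells. Arginine is also a classical stimulus of glucagon secretion. Large neutral amino acids enter through dimers of a light chain, Slc7a5 or Slc7a8, with the heavy chain Slc3a2, and several of these genes are known targets of ATF4, the transcription factor of the amino acid starvation response.

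Values are the deposited log2 expression values, where 1 unit is a 2-fold difference, and a difference is IDE-KD minus control. They support comparison of 1 gene across arrays and not of one gene's level with another's. The 8 arrays had medians between 5.10 and 5.17 over the 22142 tested probe sets and correlated with each other at 0.984 to 0.993. IDE-KD arrays 1 and 3 had the smallest spread over the tested rows (SD 2.16 and 2.13, against 2.20 to 2.25 on the others). Ide was lower on every IDE-KD array (7.91, 8.14, 7.92 and 8.05) than on every control array (8.48 to 8.72). Its difference was -0.62 (95% interval -0.87 to -0.36) with an unadjusted limma p of 0.00016, yet its adjusted p over all rows was 0.9998. The adjusted threshold thus missed the targeted gene too, so counts of 0 past it do not show that nothing changed. Most of the matched alpha cell markers, Gcg among them, were above background. Of 16 matched alpha cell markers, 13 exceeded on all 8 arrays the 95th percentile of the negative control rows, a level that lay between 6.84 and 7.03 depending on the array. The same was true of 1 of 16 beta, delta, PP and epsilon cell markers, 0 of 9 fibroblast and stellate cell markers and 1 of 12 immune, endothelial and exocrine cell markers. The alpha cell markers Irx1, Tm4sf4 and Ttr passed the percentile on 0 arrays. Chga, Dpp10, Gria3, Pcsk1n, Slc30a8 and Wnk3, which all passed, were additions to the alpha cell markers of the design.

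By that measure 8 of the 10 transporter genes were clearly above background on every array, as were 21.3% of all tested rows. The exceptions were Slc7a8, which passed the percentile on 0 arrays, and Slc1a5, which passed it on 1. Their mean levels still exceeded 93.1% and 93.7% of the negative control rows, so both are weak signals whose changes are compressed on this scale.

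To show the sequences in front of genes that the results return to, the 250 bases upstream of an annotated start are printed for Slc38a5, the carrier tied to alpha cell growth, and for Slc3a2 and Slc7a1, both known to respond to ATF4. They are from RefSeq, build GRCm38.p6. Slc38a5 is at chrX:8271131-8271380 on the plus strand, Slc3a2 at chr19:8713898-8714147 on the minus strand and Slc7a1, at the first of 2 listed starts, at chr5:148399905-148400154 on the minus strand. Capitals mark CACGTG, the palindromic E-box, in Slc38a5 and CATCA, the reverse complement of TGATG, in Slc7a1, while Slc3a2 holds neither.
Slc38a5: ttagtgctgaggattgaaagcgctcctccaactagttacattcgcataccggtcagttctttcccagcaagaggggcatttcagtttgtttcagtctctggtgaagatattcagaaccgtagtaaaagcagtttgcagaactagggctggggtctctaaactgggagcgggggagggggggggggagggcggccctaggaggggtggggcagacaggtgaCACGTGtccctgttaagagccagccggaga
Slc3a2: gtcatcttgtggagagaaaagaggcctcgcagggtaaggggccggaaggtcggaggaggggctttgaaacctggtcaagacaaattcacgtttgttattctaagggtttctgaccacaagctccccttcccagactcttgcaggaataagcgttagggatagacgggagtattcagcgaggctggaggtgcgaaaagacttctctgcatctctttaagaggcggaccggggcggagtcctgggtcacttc
Slc7a1: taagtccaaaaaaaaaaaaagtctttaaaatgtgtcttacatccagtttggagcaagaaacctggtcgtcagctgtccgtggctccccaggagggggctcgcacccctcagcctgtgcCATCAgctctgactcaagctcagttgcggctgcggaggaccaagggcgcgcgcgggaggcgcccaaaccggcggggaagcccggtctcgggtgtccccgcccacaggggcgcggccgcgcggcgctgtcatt
The table of promoters held 9 windows for 6 of the 10 genes (Slc38a5, Slc38a4, Slc38a2, Slc7a1, Slc7a8 and Slc3a2), each reaching 250 bases before to 50 after a start. Slc38a1, Slc7a2, Slc7a5 and Slc1a5 were not among them. The element TGATGNAA, the core that ATF4 and C/EBP factors recognise, was searched on both strands. It stood in 0 of the 9 windows and in 3.97% of 32851 promoters of the same length. Its shorter part TGATG occurred in 3 of the 9, in Slc7a1 and at a pair of Slc38a4 starts, against 39.3% of all promoters. CACGTG, looked for after the sequences had been seen, occurred in 1 of the 9, starting 30 bases before the Slc38a5 start, against 7.15% of all. These counts describe letters in the windows only.

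**Figure D1:**
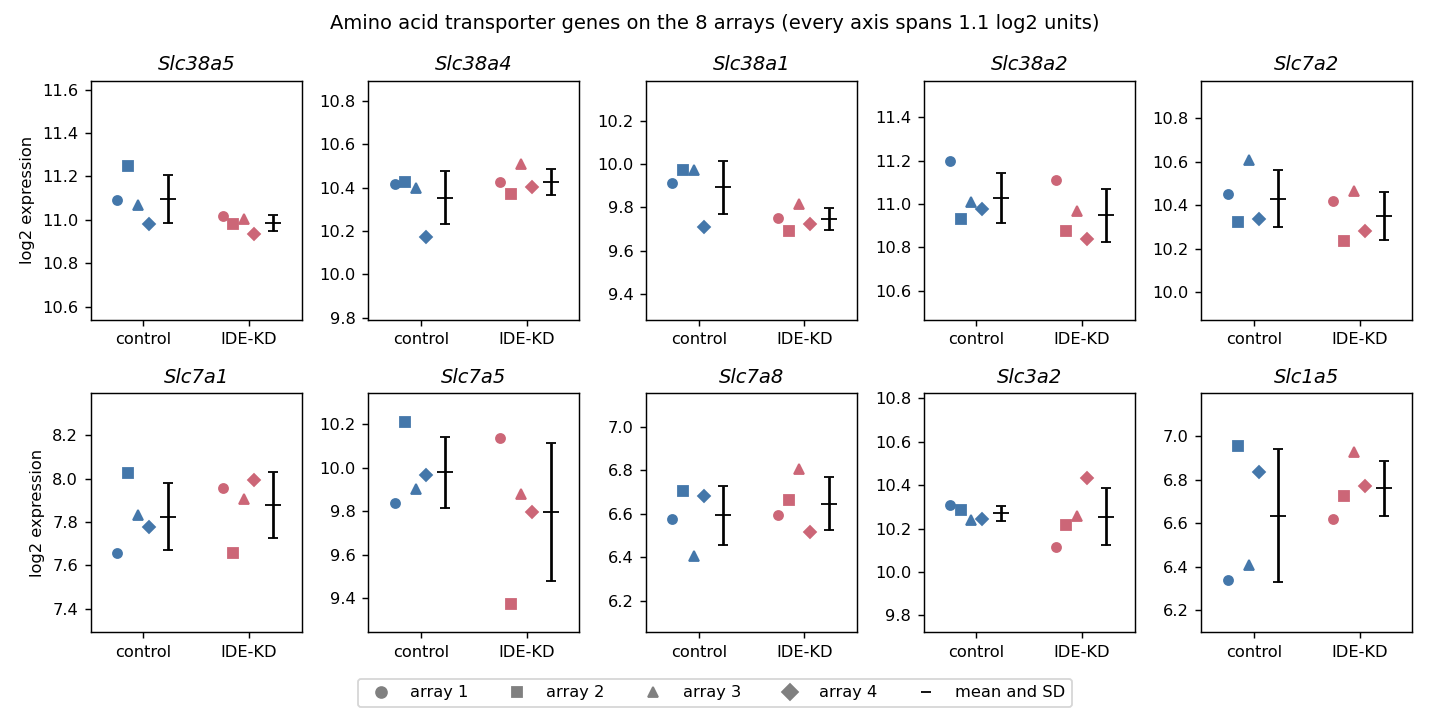
Log2 expression of the 10 transporter genes on each array, control in blue and IDE-KD in red. Symbols mark the array number, the bars give mean and SD of 4 arrays, and the groups overlap in every panel; Slc7a5 and Slc1a5 show the widest scatter, and control array 4 lies below its group for Slc38a4 and Slc38a1.

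The comparison asks whether knockdown of the protease came with altered transporter mRNA. None of the 10 genes passed an adjusted p under 0.05 in limma, where 0% of the 22142 tested rows passed. At an unadjusted p under 0.05 there were 0 of the 10, against 4.59% of all rows. The groups overlapped at all 10, whereas they did not overlap at 2.80% of all rows. The fitted differences ran from -0.18 (Slc7a5) to 0.13 (Slc1a5), with 6 genes lower and 4 higher, where 47.9% of all rows were lower, and a median of -0.048, against 0.0074 over all rows. The 95% confidence interval excluded a 1.5-fold change in either direction for the 8 genes above background, as it did for 83.6% of all rows. The intervals of Slc7a8 and Slc1a5 also lay inside that limit on this scale, but with signals so near background they set no such limit on the mRNA.

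Among the glutamine carriers, Slc38a5 encodes SNAT5, which exchanges glutamine, asparagine, serine and histidine. It read 11.09, 11.25, 11.07 and 10.98 on control arrays 1 to 4 and 11.02, 10.98, 11.01 and 10.93 on the IDE-KD arrays. The IDE-KD values lay close together and at the lower edge of the control values, with 1 control array inside their range. Its means were 11.10 ± 0.11 and 10.98 ± 0.037 (SD, n = 4), a difference of -0.11 (SE 0.11, 95% interval -0.35 to 0.13; exact two-sided permutation p = 0.114), and the difference was -0.062 without control replicate 2. The smallest p that 4 against 4 arrays can give in that test is 0.0286.

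Slc38a1 encodes SNAT1, a sodium-coupled importer of glutamine and alanine. Its values were 9.91, 9.97, 9.97 and 9.71 in control cells and 9.75, 9.69, 9.81 and 9.73 in IDE-KD cells. Control array 4 alone brought the groups into overlap; the other 3 controls stood above all IDE-KD arrays. The difference was -0.15 (SE 0.11, 95% interval -0.39 to 0.10), with the smallest unadjusted limma p of the 10 genes, 0.225, and an exact permutation p of 0.114. Without control replicate 4 it was -0.21, and over leaving out each array in turn its adjusted p in limma ran from 0.876 to 1.00.

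Slc38a4, whose product SNAT4 carries neutral amino acids and in part cationic ones, went the other way. Its control arrays read 10.42, 10.43, 10.40 and 10.17, its IDE-KD arrays 10.43, 10.37, 10.51 and 10.40, and control array 4 was again the lowest. The difference of 0.073 (SE 0.11, 95% interval -0.18 to 0.32) became 0.012 without that array. Slc38a2 encodes SNAT2, which cells raise when amino acids are scarce, and read 11.20, 10.93, 11.01 and 10.98 in control and 11.11, 10.88, 10.97 and 10.84 in IDE-KD cells. Array 1 was the highest in both groups, and the difference was -0.080 (SE 0.12, 95% interval -0.34 to 0.18). It was -0.024 without control replicate 1 and -0.17 with IDE-KD arrays 1 and 3 both left out. Control arrays 1 and 3 stayed in the second fit, so it mixes the group difference with any offset that arrays 1 and 3 share.

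Of the cationic carriers, Slc7a2 (CAT2) is the arginine transporter linked to glucagon secretion. Its control arrays read 10.45, 10.32, 10.61 and 10.34 and its IDE-KD arrays 10.42, 10.23, 10.47 and 10.28. Arrays 1 and 3 were above arrays 2 and 4 in both groups, so the scatter ran within groups as much as between them. The difference was -0.080 (SE 0.12, 95% interval -0.34 to 0.18, exact permutation p = 0.400). For Slc7a2 it became -0.021 without control replicate 3 and -0.17 with IDE-KD arrays 1 and 3 both left out. The second setting keeps the higher control arrays 1 and 3, so it mixes the group difference with that offset between arrays. Slc7a1 (CAT1), the general arginine and lysine carrier of growing cells, read 7.66, 8.03, 7.83 and 7.78 against 7.96, 7.66, 7.90 and 7.99. Both groups spanned nearly the same range, and the difference of 0.053 (SE 0.13, 95% interval -0.22 to 0.33) was -0.0016 without control replicate 1.

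The light chain Slc7a5 (LAT1), which brings in leucine and other large neutral amino acids, had the largest fitted difference and also the largest scatter of the 10 genes. Its values were 9.84, 10.21, 9.90 and 9.96 in control cells and 10.14, 9.37, 9.88 and 9.80 in IDE-KD cells. IDE-KD array 2 was the lowest of all 8 and IDE-KD array 1 the second highest, so the IDE-KD arrays enclosed 3 of the 4 controls. The difference of -0.18 (SE 0.16, 95% interval -0.53 to 0.17; exact permutation p = 0.343) shrank to -0.039 without IDE-KD replicate 2. The other light chain, Slc7a8 (LAT2), read 6.58, 6.71, 6.40 and 6.68 in control and 6.60, 6.66, 6.81 and 6.52 in IDE-KD cells, a difference of 0.054 (SE 0.12). Its groups overlapped between 6.52 and 6.71, where most arrays lay, and the difference was -0.0093 without control replicate 3. The heavy chain Slc3a2 (CD98), which both light chains need to reach the surface, read 10.31, 10.29, 10.24 and 10.25 in control and 10.11, 10.22, 10.26 and 10.43 in IDE-KD cells. Control arrays of Slc3a2 were nearly equal (SD 0.034), whereas the IDE-KD arrays lay on both sides of them (SD 0.13). Its difference was -0.016 (SE 0.11, 95% interval -0.26 to 0.23).

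Slc1a5 (ASCT2), a glutamine and small neutral amino acid exchanger of many dividing cells, read 6.34, 6.96, 6.41 and 6.84 in control and 6.62, 6.72, 6.93 and 6.77 in IDE-KD cells. The controls fell on both sides of the IDE-KD arrays, and the difference was 0.13 (SE 0.15, 95% interval -0.21 to 0.46). It was 0.027 without control replicate 1 and 0.23 without control replicate 2.

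Scatter between replicates differed among the members. The pooled within-group SD was 0.082 for Slc38a5, 0.095 for Slc38a1 and 0.096 for both Slc38a4 and Slc3a2, against a median of 0.21 over all tested rows. Rows with a smaller SD made up 2.90% of the total for Slc38a5, 4.97% for Slc38a1, 5.31% for Slc38a4 and 5.37% for Slc3a2. It was 0.25 for Slc7a5 and 0.23 for Slc1a5, on the upper side of that median.

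**Figure D2:**
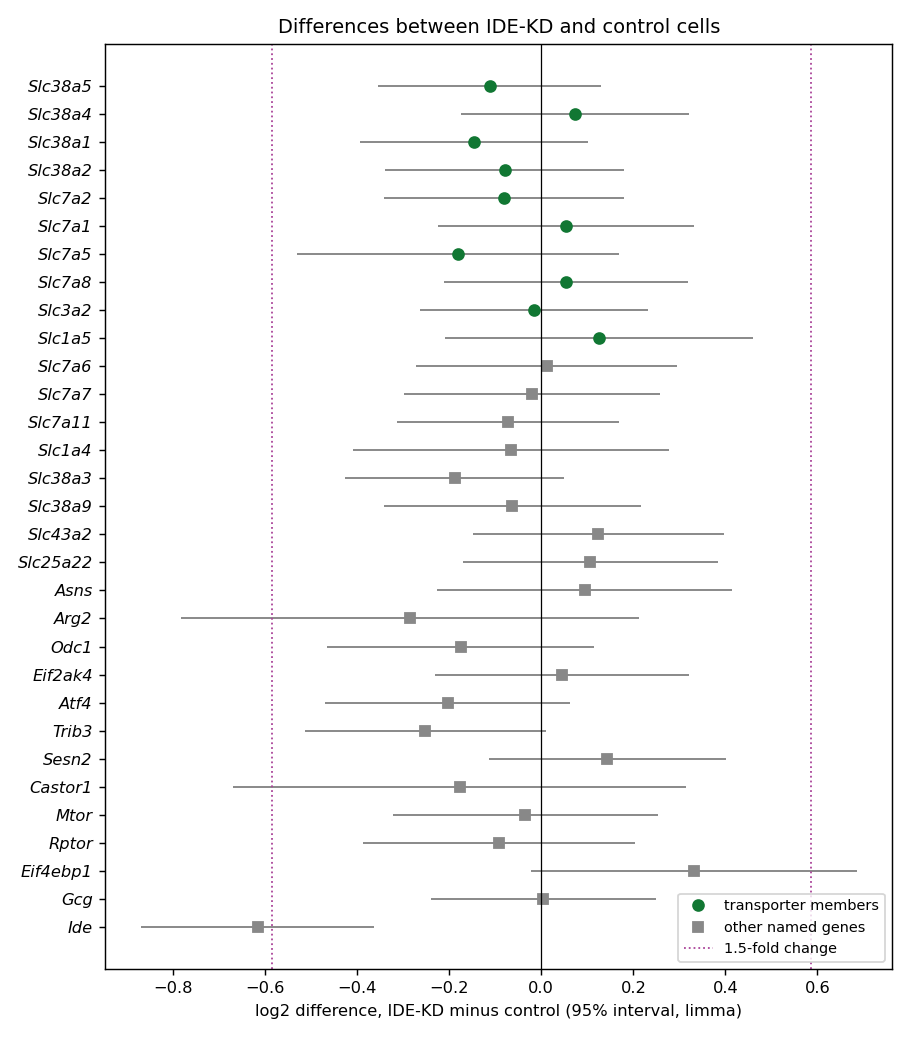
Log2 difference (IDE-KD minus control) with its 95% limma interval for the 10 transporter genes and 21 further named genes, with dotted lines at a 1.5-fold change. All 10 member intervals include 0 and stay inside the dotted lines, whereas the interval of Ide lies wholly below 0.

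Related genes were taken from lists of the amino acid pathway. Of 39 other amino acid transporters of the plasma membrane, 0 passed the adjusted threshold in either direction, with 23 higher and 16 lower (median 0.020). Among those chosen whatever their values, the LAT-type light chain genes Slc7a6 and Slc7a7 differed by 0.012 (SE 0.13) and -0.020 (SE 0.13), and Slc7a11, the cystine light chain, by -0.073 (SE 0.11). Slc43a2 (LAT4), which works without a heavy chain, differed by 0.12 (SE 0.13) and Slc1a4 (ASCT1), the closest relative of Slc1a5 here, by -0.066 (SE 0.16). Slc38a3 (SNAT3) was lower on all 4 IDE-KD arrays (4.03 to 4.23, against 4.24 to 4.32 in control), but this signal was near the middle of the negative control rows, and 1.41% of all rows were likewise lower without overlap, with 1.39% higher. Lysosomal and vesicular transporters had 0 of 15 past the threshold (7 higher, 8 lower, median -0.042), including Slc38a9, the lysosomal arginine sensor of mTORC1, at -0.063 (SE 0.13). Mitochondrial carriers had 0 of 14 (8 higher, 6 lower, median 0.027), including the glutamate carrier Slc25a22 at 0.11 (SE 0.13).

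The genes that read or use the transported amino acids did not pass either. In amino acid sensing by mTORC1, 0 of 42 passed (16 higher, 26 lower, median -0.038), with the kinase gene Mtor at -0.035 (SE 0.13), its partner Rptor at -0.092 (SE 0.14) and Eif4ebp1, a translation repressor that mTORC1 phosphorylates, at 0.33 (SE 0.16), a weak signal. The leucine sensor Sesn2, also weak, read 0.14 (SE 0.12) and the arginine sensor Castor1, whose signal was below most negative control rows, -0.18 (SE 0.23). In glutamine and glutamate metabolism 0 of 21 passed (10 higher, 11 lower, median -0.029), with the asparagine synthetase gene Asns at 0.094 (SE 0.15). In arginine and polyamine metabolism 0 of 24 passed (12 of them higher, median -0.0090), with the ornithine decarboxylase gene Odc1 at -0.18 (SE 0.13) and the arginase gene Arg2, a weak signal, at -0.29 (SE 0.23, -0.092 without IDE-KD replicate 1 and -0.54 without IDE-KD replicate 2).

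The amino acid response through the kinase GCN2 and ATF4 had 0 of 30 genes past the threshold, with 10 higher and 20 lower and a median of -0.051. Atf4 itself read 8.52, 8.72, 8.57 and 8.54 in control and 8.38, 8.49, 8.16 and 8.52 in IDE-KD cells. Every IDE-KD array was below every control array, by a narrow margin, and the difference was -0.20 (SE 0.12, 95% interval -0.47 to 0.063; unadjusted limma p = 0.122, exact permutation p = 0.0286, the smallest possible). It was -0.085 when IDE-KD arrays 1 and 3, which also had the smallest spread over all rows, were both left out. Control arrays 1 and 3 stayed in that fit, and the part of the IDE-KD arrays in the result was not tested further. The GCN2 gene Eif2ak4 read 0.045 (SE 0.13). Trib3, an ATF4 target, read 5.40 to 5.55 in IDE-KD and 5.58 to 5.95 in control cells, again without overlap and by -0.25 (SE 0.12), but it passed the background percentile on 0 arrays. Aminoacyl-tRNA synthetase genes, which load amino acids onto tRNA, had 0 of 21 past the threshold (5 higher, 16 lower, median -0.043). ATF4 lists had been seen to lean lower in these arrays before, so the counts are not independent evidence of a direction.

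**Figure D3:**
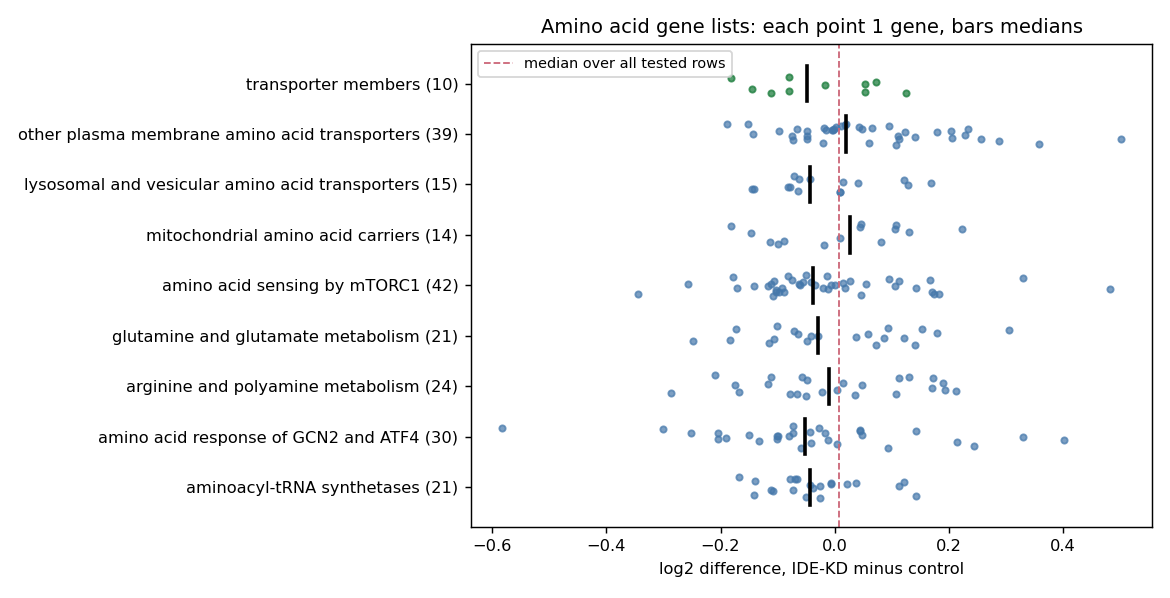
Log2 difference (IDE-KD minus control) of each measured gene in the transporter set and in 8 related lists, with the number of genes in brackets, black bars at the list medians and a dashed line at the median of all tested rows. The 10 members lie between -0.18 and 0.13, and the list medians lie between -0.051 and 0.027.

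Across the 8 arrays the transporter genes varied together only in part. Over 45 pairs, 31 correlations were positive, and none passed after Benjamini-Hochberg adjustment of exact two-sided permutation p-values. The strongest was between the glutamine carriers Slc38a5 and Slc38a1, with Pearson r = 0.83 (exact permutation p = 0.0028, adjusted p = 0.126) and Spearman rho = 0.86 (exact permutation p = 0.0107, adjusted p = 0.482). With group means removed r was 0.72, and without control arrays 1 and 2, the arrays farthest from the Slc38a5 median, it was 0.84. Slc7a8 and Slc1a5, both weak signals, followed with r = 0.74 (exact permutation p = 0.0337, adjusted p = 0.759) and rho = 0.79 (exact permutation p = 0.0279, adjusted p = 0.628), and r was 0.54 without control array 3 and IDE-KD array 3. The heavy chain Slc3a2 was not correlated detectably with its light chains: r was -0.15 with Slc7a5 (exact permutation p = 0.703, adjusted p = 0.950; rho = -0.21, exact permutation p = 0.619, adjusted p = 0.899) and -0.17 with Slc7a8 (exact permutation p = 0.713, adjusted p = 0.950; rho = -0.048, exact permutation p = 0.935, adjusted p = 0.978). Without IDE-KD array 2 and control array 2 the Slc7a5 value was -0.91, and without control array 3 and IDE-KD array 3 the Slc7a8 value was -0.45, so both rest on a few arrays.

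**Figure D4:**
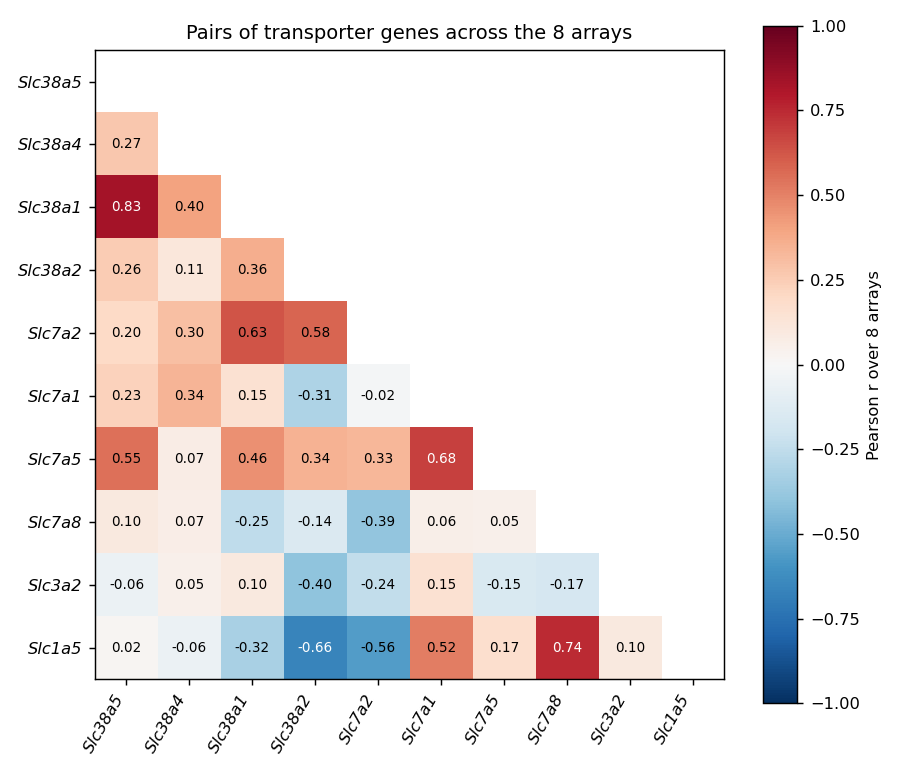
Pearson correlation over the 8 arrays for each of the 45 pairs of transporter genes, from blue (-1) to red (1). Values run from -0.66 (Slc38a2 with Slc1a5) to 0.83 (Slc38a5 with Slc38a1), and Slc3a2 with its light chains stands at -0.15 (Slc7a5) and -0.17 (Slc7a8).

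Among 12148 named rows brighter than the median array control row, the genes most like Slc38a5 over the 8 arrays by Pearson r were Ngfr, a neurotrophin receptor gene, Ptk7 and Rfx5. Those most like Slc7a2 were Cbl, a ubiquitin ligase gene, Virma and Ncl, which encodes nucleolin. Those most like Slc3a2 were the mitochondrial ribosomal gene Mrpl46, Xkr6 and Cdca4. Pearson r was 0.91 to 0.93 for the first 3 genes, 0.94 to 0.97 for the next and 0.95 to 0.96 for the last. Each is the best match among all rows searched, over 8 arrays that were normalized together, so these values are a description and carry no p.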

How the data were processed

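Total RNA (1 µg per sample) of control and IDE-KD alphaTC1.9 cells was hybridised to Clariom S arrays, 4 per group, per the labels' protocols. The deposited values are log2 expression values, 1 column per array, and RMA, oligo and limma are listed in the submitters' processing notes with no version or role; RMA usually equalises array distributions, which would remove a global change in RNA and compresses weak signals. No source used here gives the probe sets' genome build. Of 29129 rows, 22142 transcript clusters were tested as deposited, and 6923 control and 64 unplaced rows were left out. The platform table gave 19527 of them a single gene, 2615 no gene and 0 more than one; all 19527 were found in RefSeq by Entrez ID. IDE-KD minus control was fitted with limma 3.58.1 (lmFit, eBayes) under R 4.3.3, no covariates being used; p-values were adjusted by Benjamini-Hochberg over the whole table at a threshold of 0.05, and the fit was tested on simulated data. Permutation tests, exact except for pairs with group means removed, were run in R for single genes and in Python 3.11.15 for pairs. The number of arrays limits precision: the median half-width of a 95% interval was 0.32. Samples were grouped by title. Members and lists were chosen with earlier results of these data known. The named genes were the 10 members, Ide, Gcg and a list taken whatever their values, plus any list gene past the threshold (none passed), and for Slc38a5, Slc7a2 and Slc3a2 the 3 genes of highest r, leaving out clone names, predicted genes and vomeronasal or olfactory receptors. Alternatives were other normalizations, a filter on dim rows, variance models, array weights, a replicate block and leaving out each array.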

Additional observations from a re-analysis of the deposited data

Results flagged for a closer look

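In groups of 4 arrays, a value was singled out when its gap to the nearest other value exceeded Dixon's limit of the group's range. Of 62 groups (31 named genes, 2 groups each) this marked 2, where chance marks about 1 in 20. Slc38a4 on control array 4 read 10.17, below the other controls at 10.40 to 10.43. Sesn2 on control array 3 read 5.48, below the other controls at 5.51 to 5.52, a gap that is small in absolute size.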

How the results depend on the processing

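The count of members past the adjusted limma threshold was 0 under 15 other settings and with IDE-KD arrays 1 and 3 left out, as was the count over all rows and over the related lists. The median difference over the members stayed between -0.062 and -0.013 under those settings and was -0.070 without those 2 arrays. Replicate numbers did not mark shared cultures in the labels, and same-numbered arrays deviated together only weakly, so no pairing was assumed. Their r was 0.0876 to 0.129, with 2 of 4 pairs above 0.1 and 2 of 8 arrays correlating best with their own number. Over the brighter rows their r was 0.0553 to 0.166, with 3 of 4 above 0.1. Other-numbered pairs ranged more widely, from -0.225 to 0.209. Over the brighter rows, control array 2 with IDE-KD array 4 gave 0.307 and control array 1 with IDE-KD array 4 gave -0.284. Over all rows, arrays 1 and 3 of one group correlated positively with arrays 1 and 3 of the other, and arrays 2 and 4 likewise (r 0.0247 to 0.209). Every odd number with an even number was negative (-0.225 to -0.048). Over the brighter rows the signs were the same except for control array 1 with IDE-KD array 2 (0.019). Arrays thus shared deviations across groups by odd and even number rather than by single number, and their source was not tested. Slc38a5, Slc38a2 and Slc7a2 were lower in all 4 same-numbered pairs. With the replicate block the count of calls remained 0, Slc38a5 was -0.11 (SE 0.12) and Slc7a5 -0.18 (SE 0.17). After cyclic loess Slc3a2 read 0.0032, and after subtracting array medians Gcg read -0.0092 and Slc7a6 -0.0016. With IDE-KD arrays 1 and 3 left out, a choice made after seeing the data, the sign turned for Slc7a8 (-0.0016), Slc3a2 (0.052), Eif2ak4 (-0.0405), Mtor (0.0033), Castor1 (0.052), Arg2 (0.084) and Slc7a7 (0.088), while Slc7a5 read -0.39. That choice kept control arrays 1 and 3. It therefore does not separate the knockdown from an offset that arrays 1 and 3 share across groups. Leaving out 1 array gave -0.0016 to 0.13 for Slc7a1, -0.0093 to 0.096 for Slc7a8, -0.075 to 0.030 for Slc3a2, -0.030 to 0.044 for Gcg, -0.053 to 0.10 for Slc7a6, -0.17 to 0.022 for Slc1a4, -0.13 to 0.017 for Slc38a9, -0.098 to 0.037 for Slc7a7, -0.11 to 0.038 for Mtor and -0.33 to 0.020 for Castor1. The cause of these sign changes was not tested. With group means removed 1 pair of members passed instead of 0, by a permutation across groups that is not exact for such centred values. The motif count in member promoters was 0 for TGATGNAA and TTGCATCA, 3 for TGATG and 1 for CACGTG. Weak signal over background limits Slc7a8, Slc1a5 and 9 of the 21 other named genes, which passed the background percentile on 0 arrays: Trib3, Slc7a11, Sesn2, Eif4ebp1, Slc38a3, Castor1, Slc1a4, Arg2 and Slc7a7.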

Other observations

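Slc38a1, Slc38a2 and Slc38a4 are consecutive protein-coding genes on chromosome 15 in RefSeq. After the values had been seen, the log2 ratio of each pair of members within an array was compared between groups. The ratio of Slc38a4 to Slc38a1 was the steadiest of the 45, with a pooled SD of 0.0233, against 0.0672 for the next and 0.323 for the widest. It read 0.50, 0.45, 0.43 and 0.46 on the control arrays and 0.67, 0.67, 0.69 and 0.68 on the IDE-KD arrays, so the groups did not overlap. The difference was 0.22, with p = 0.0286 (exact permutation, two-sided), the smallest possible, and an adjusted p of 0.643 over the 45 pairs. With only 2 pairs at that smallest p, the adjusted p could not fall under 0.05 however large the difference. It therefore does not decide whether the ratio shifted. The groups did not overlap for 2 of the 45 pairs. For single rows they did not overlap at 2.80% of all rows, but that share is no background for ratios, and none was computed over ratios of other rows. The other pair was Slc38a5 to Slc38a4 (-0.18), which shares Slc38a4 with the first and is not a separate finding. A ratio shows unequal change and not which gene changed, and neither gene alone differed detectably. With group means removed, Slc38a1 and Slc38a4 correlated at r = 0.97 and rho = 0.88 (permutation p = 0.00067 and adjusted p = 0.0301 for r). Over the raw values r was 0.40 and rho 0.50 (exact permutation p = 0.381 and 0.216, adjusted p = 0.950 and 0.811). The permutation with group means removed shuffled values freely across groups, although they had been centred within each group. Its p is therefore not exact, and no conclusion is drawn from it. Leaving out 1 array gave r with group means removed from 0.85 (without control array 4) to 0.99. The ratio between Slc38a4 and Slc38a2, the gene between them, overlapped between groups, with a pooled SD of 0.129.

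Of 197 genes in the 8 related lists, 8 had an unadjusted limma p under 0.05 (4.06%, against 4.59% of all rows), 4 higher and 4 lower. The groups did not overlap at 8 (4.06%, against 2.80% of all rows), 2 higher and 6 lower. Together these were 12 genes, named here after their values were seen. Of them, 6 passed the background percentile on 0 arrays. Those were Slc38a3 and Trib3, given above, Stc2 (-0.58, SE 0.15), Atf5 (-0.30, SE 0.13), Slc6a7 (0.50, SE 0.18) and Tbc1d7 (0.48, SE 0.16). Another 4 passed the background percentile on all 8 arrays, with Atf4, Castor2 and Gclc lower and Qars higher. Castor2, a relative of the arginine sensor Castor1, had means of 8.25 ± 0.15 for control arrays and 7.91 ± 0.12 for IDE-KD arrays (SD, n = 4), a difference of -0.35 (SE 0.12). Gclc, which makes the glutamate-cysteine bond of glutathione, differed by -0.25 (SE 0.11). Qars, the glutaminyl-tRNA synthetase gene, differed by 0.12 (SE 0.11). Psph, a serine synthesis gene that passed the percentile on 6 arrays, differed by 0.40 (SE 0.13). Slc6a15, a neutral amino acid carrier gene that passed it on 1 array, differed by 0.36 (SE 0.15). None of the 12 passed the adjusted threshold in limma.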
